A study of Mus musculus with 8 samples.

Results

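Phospholipases C are the enzymes that cut the membrane lipid PIP2 into IP3, which opens calcium channels of the endoplasmic reticulum, and diacylglycerol, which activates protein kinase C. The family studied here held 10 mouse genes, taken by symbol from the deposited gene table: the sperm isoform gene Plcz1, the delta genes Plcd1, Plcd3 and Plcd4, the beta genes Plcb1, Plcb2, Plcb3 and Plcb4, and the gamma genes Plcg1 and Plcg2. They correspond to 11 of the 56324 gene models of the table, since Plcb4 has 2 models. Sperm deliver the Plcz1 protein into the egg at fertilization, where it starts the calcium oscillations that activate development. Plcz1 lacks the pleckstrin homology domain that the other classes carry. Beta enzymes are switched on by G proteins of the Gq class, gamma enzymes by tyrosine kinases, and delta enzymes respond to calcium.

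The libraries came from 4 samples of spermatids, the haploid cells that form sperm, and 4 samples of spermatocytes, the meiotic cells that precede them. Both cell types were purified by sedimentation at unit gravity from testes of C57BL/6 males aged 12 weeks, and every sample carried the genotype label Sam68 -/-, a deletion of the RNA-binding protein gene Khdrbs1. Spermatids and spermatocytes were therefore compared within a single labelled genotype, and libraries of another genotype were not analysed here. Nothing in the labels ties the libraries to different animals, and the p-values below reflect the scatter among these 8 libraries, part of which may be technical.

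Reads recovered from the normalized counts and summed over all gene models were 60673309 to 93975960 in spermatid libraries and 49000266 to 78060212 in spermatocyte libraries. Khdrbs1 had 625 to 1129 normalized counts in spermatids and 3421 to 4985 in spermatocytes, summed over a gene model that may extend beyond the deleted part, so that it does not check the genotype label. The summed normalized counts of 8 spermatid markers were 412362 to 494908 in spermatid libraries and 14929 to 29775 in spermatocyte libraries, and all 8 were called higher. Of 7 spermatocyte markers 2 were called lower in spermatids and 0 higher, with sums of 56817 to 69096 in spermatids and 226072 to 249450 in spermatocytes. The 2 were Piwil1, the most abundant at 118349 to 166551 in spermatocytes, and Pou5f2. Spermatocyte library 4 was low in markers that were not called, with Sycp1 at 1653, Sycp3 at 3303 and Hormad1 at 1395. These values lay below all spermatid libraries, while spermatocyte libraries 1 to 3 held at least 12680, 15595 and 6447. Library 4 was the highest spermatocyte library in Piwil1, Pou5f2, Spag6 and Ccna1. Library 3 was the lowest spermatocyte library in Pou5f2 (5431), Spag6 (17284) and Ccna1 (8034), and the highest in Sycp1, Sycp3 and Hormad1. The other spermatocyte libraries held at least 12380, 32789 and 22254 normalized counts of Pou5f2, Spag6 and Ccna1. The Ccna1 value of library 3 also lay below all spermatid libraries. Sertoli cell markers summed to 3185 to 7945 in spermatid libraries and 32223 to 156505 in spermatocyte libraries, with 10 of 10 called lower in spermatids, and 5 Leydig cell markers to 185 to 1099 in spermatid and 3331 to 6997 in spermatocyte libraries, with 5 of 5 called lower. Markers of macrophages and blood summed to 2334 to 5356 in spermatids and 147 to 195 in spermatocytes, with 7 of 10 called higher. The haemoglobin gene Hba-a1 was the only marker at 0 in all spermatocyte libraries, and it was also 0 in spermatid libraries 2 to 4. Hbb-bs, another haemoglobin gene, had 0 to 2.69 normalized counts in spermatids and 7.25 to 13.4 in spermatocytes. Peritubular and endothelial markers summed to 1653 to 2502 in spermatids and 929 to 1483 in spermatocytes, with 3 of 6 called higher and 1 lower. Spermatogonial markers summed to 2271 to 5193 in spermatids and 892 to 2066 in spermatocytes, with 3 of 7 called higher and 0 lower.

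The sequences that bear on the values below are the windows around annotated start sites, from 250 bases before to 50 bases after a start, as RefSeq gives them for GRCm38.p6 (the same assembly as mm10). They were picked for their content of CpG dinucleotides, printed in capitals: both starts of Plcb4 differed most within a gene, and Plcd4 and Plcb2 had the lowest ratios. The upstream and the downstream RefSeq start of Plcb4 lie on the plus strand at chr2:135659297-135659596 and chr2:135764588-135764887. The first start of Plcd4 lies on the plus strand at chr1:74542639-74542938. The start of Plcb2 lies on the minus strand at chr2:118728389-118728688.
Plcb4 upstream: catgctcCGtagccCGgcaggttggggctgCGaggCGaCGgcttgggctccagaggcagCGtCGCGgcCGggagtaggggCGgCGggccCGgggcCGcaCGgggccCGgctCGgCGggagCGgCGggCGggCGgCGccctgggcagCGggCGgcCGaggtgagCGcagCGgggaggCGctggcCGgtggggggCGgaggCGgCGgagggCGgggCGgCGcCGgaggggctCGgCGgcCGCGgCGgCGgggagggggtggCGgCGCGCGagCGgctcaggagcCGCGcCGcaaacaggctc
Plcb4 downstream: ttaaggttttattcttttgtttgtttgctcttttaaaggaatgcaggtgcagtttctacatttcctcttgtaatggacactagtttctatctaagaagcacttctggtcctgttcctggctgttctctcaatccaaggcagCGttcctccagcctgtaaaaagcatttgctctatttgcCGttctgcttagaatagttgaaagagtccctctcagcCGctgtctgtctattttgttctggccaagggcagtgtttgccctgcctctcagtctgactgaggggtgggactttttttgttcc
Plcd4: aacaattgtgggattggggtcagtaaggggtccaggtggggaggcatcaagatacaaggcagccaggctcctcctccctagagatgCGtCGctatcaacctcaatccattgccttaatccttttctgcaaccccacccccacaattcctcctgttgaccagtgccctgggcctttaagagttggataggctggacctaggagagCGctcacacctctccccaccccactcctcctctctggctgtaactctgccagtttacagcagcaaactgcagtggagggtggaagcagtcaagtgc
Plcb2: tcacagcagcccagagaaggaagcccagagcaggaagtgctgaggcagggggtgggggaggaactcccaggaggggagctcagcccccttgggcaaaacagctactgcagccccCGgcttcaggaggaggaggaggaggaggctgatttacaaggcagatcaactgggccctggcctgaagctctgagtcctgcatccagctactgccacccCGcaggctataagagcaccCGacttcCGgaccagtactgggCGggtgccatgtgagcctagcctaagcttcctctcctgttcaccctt
The upstream Plcb4 window held 50 CpG, the downstream one 3, that of Plcd4 3 and that of Plcb2 5.

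Plcz1 rose most among the members. Its model, on chromosome 6 from 139989722 to 140041432 of mm10, had 30852, 40323, 48461 and 48471 normalized counts in spermatid libraries 1 to 4, against 1123, 1351, 1346 and 731 in spermatocyte libraries 1 to 4. The lowest spermatid library lay far above the highest spermatocyte library. The means were 42027 ± 8381 in spermatids and 1138 ± 292 in spermatocytes (SD, n = 4 each), a ratio of 36.9. The log2 fold change was 5.22 ± 0.23 (SE; limma adjusted p = 2.4e-09). A normalized count is here the number of reads divided by the authors' size factor of the library. A gene was called where limma's Benjamini-Hochberg adjusted p over all tested models was below 0.05 and the log2 fold change was at least 1 in size. In bulk libraries such as these, fewer cells of a type and less RNA per cell cannot be told apart. Among the tested models Plcz1 stood at percentile 98.7 in spermatids and 77.1 in spermatocytes.

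Of the 10 members 5 rose (Plcz1, Plcb4, Plcg2, Plcd4 and Plcd1), 2 fell (Plcb2 and Plcb3) and 3 were not called (Plcg1, Plcd3 and Plcb1). All 10 genes passed the filter on low values, while the upstream Plcb4 model did not. Over the 28735 models tested 32.5% were called higher, 29.8% lower and 62.3% in either direction, so the 7 members called are near the background of this comparison. The libraries of both cell types did not overlap for the same 5 members in the upward direction and the same 2 in the downward direction, where 34.2% and 32.2% of all tested models did so. The median log2 fold change of the members was 0.66, and that of all tested models was -0.01. Of the tested models 10238 had no gene symbol. Over the 17967 tested models with a symbol and a known GC content the median was 0.25, with 6372 called higher and 3792 lower. The plot of members by library shows how far the groups lay apart for each gene.

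**Figure D1:**
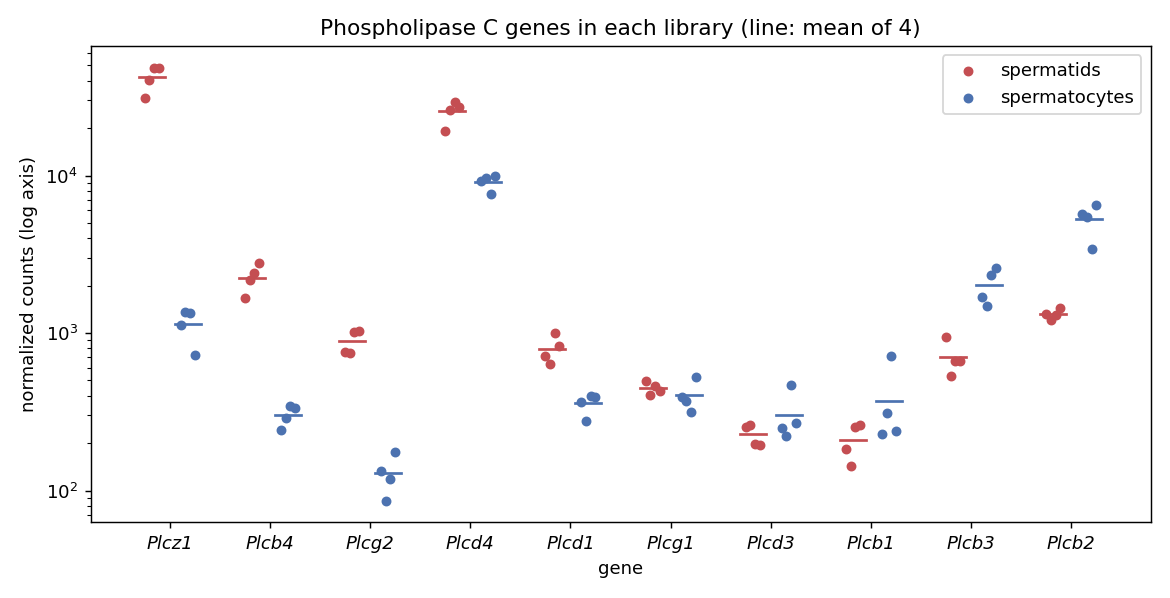
Normalized counts (log axis) of the 10 phospholipase C genes in 4 spermatid and 4 spermatocyte libraries, ordered by fold change; points are libraries 1 to 4 from left to right and lines are means. Plcz1 averaged 42027 in spermatids and 1138 in spermatocytes, and Plcb2 1314 in spermatids and 5283 in spermatocytes.

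Plcd4, a delta isoform that mouse sperm are known to need for a normal acrosome reaction, was abundant in both cell types. Its model on chromosome 1, from 74542887 to 74567794, had 19307, 26117, 29497 and 27385 normalized counts in spermatids, against 9229, 9645, 7680 and 9877 in spermatocytes. Every spermatid library exceeded every spermatocyte library. The means were 25577 ± 4406 and 9108 ± 989 (spermatids and spermatocytes, SD, n = 4 each), with a log2 fold change of 1.48 ± 0.18 (SE; limma adjusted p = 1.1e-05). With quantile normalization the change was 0.90 and fell short of the fold threshold (limma adjusted p = 7.3e-06). The Plcd4 model overlaps those of Usp37 and Zfp142, which lie on the opposite strand and of which Usp37 rose (log2 fold change 1.83 ± 0.19 SE, limma adjusted p = 3.5e-06). GENCODE M21 exons of Plcd4 share 2101 bases with exons of Zfp142 and 0 with those of Usp37. Zfp142 was not called (log2 fold change -0.39 ± 0.28 SE, limma adjusted p = 0.229). It had 1147 ± 308 normalized counts in spermatids and 1537 ± 544 in spermatocytes (SD, n = 4 each). The strand setting of the authors' counting is not given in the sources used here, so reads of overlapping genes may be mixed.

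Plcd1, known for its role in skin and hair, changed less. On chromosome 9 from 119071527 to 119093503, it had 716, 633, 1006 and 832 normalized counts in spermatids, against 367, 275, 399 and 393 in spermatocytes. The groups did not overlap, and the log2 fold change was 1.14 ± 0.22 (SE; limma adjusted p = 5.4e-04). It was 0.71 with equal total reads and 0.80 with quantile normalization, both short of the fold threshold. Plcd3, on chromosome 11 from 103070296 to 103102732, was not called: it had 254, 263, 197 and 195 normalized counts in spermatids and 251, 223, 470 and 268 in spermatocytes (log2 fold change -0.36 ± 0.28 SE, limma adjusted p = 0.253). Spermatocyte library 3 held the highest Plcd3 value, and the other libraries of both cell types overlapped.

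The beta genes went in both directions. Plcb2, best known from blood and taste cells, fell most of all members. Its model on chromosome 2, from 118707517 to 118728590, had 1313, 1217, 1293 and 1432 normalized counts in spermatids, against 5704, 5492, 3412 and 6524 in spermatocytes. All spermatid libraries lay below all spermatocyte libraries, and spermatocyte library 3, the library with the highest Sertoli marker sum, held the least Plcb2 of its group. The part of Sertoli cell RNA in the Plcb2 values was not tested. The means were 1314 ± 89.3 in spermatids and 5283 ± 1324 in spermatocytes (SD, n = 4 each), and the log2 fold change was -1.97 ± 0.21 (SE; limma adjusted p = 3.2e-06).

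Plcb3, a broadly expressed beta isoform, also fell. On chromosome 19 from 6952325 to 6969790, it had 950, 537, 661 and 669 normalized counts in spermatids, against 1688, 1493, 2331 and 2600 in spermatocytes (log2 fold change -1.52 ± 0.24 SE, limma adjusted p = 9.7e-05). The groups did not overlap, and spermatocyte libraries 3 and 4 were the highest. Those libraries also had the highest Sertoli marker sums, 156505 and 75674 against 32223 and 53819 in libraries 1 and 2, and spermatid library 2 was lowest both in Plcb3 and in that sum (3185). Without spermatocyte libraries 3 and 4 the log2 fold change of Plcb3 was -1.20 and the call held. The remaining spermatocyte libraries 1 and 2 still had Sertoli marker sums above those of all spermatid libraries (3185 to 7945). Leaving out libraries 3 and 4 therefore does not separate Sertoli cell content from cell type. The part of Sertoli cell RNA in the Plcb3 difference was not tested.

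Plcb4, known from the retina and cerebellum, rose. The downstream model on chromosome 2, from 135741817 to 136014574, had 1658, 2170, 2409 and 2767 normalized counts in spermatids, against 242, 290, 344 and 336 in spermatocytes. No spermatocyte library came near the lowest spermatid library. The means were 2251 ± 465 in spermatids and 303 ± 47.3 in spermatocytes (SD, n = 4 each), with a ratio of 7.43 and a log2 fold change of 2.88 ± 0.21 (SE; limma adjusted p = 1.7e-07). The upstream model, from 135659009 to 135742838, had 4.48, 1.87, 7.51 and 9.80 normalized counts in spermatids and 1.61, 7.85, 6.71 and 4.57 in spermatocytes, which amounts to 2 to 9 reads per library. Per kb of GENCODE M21 exon within each model, the downstream model averaged 270 ± 55.9 in spermatids and 36.4 ± 5.68 in spermatocytes, and the upstream model 3.63 ± 2.13 in spermatids and 3.18 ± 1.68 in spermatocytes (SD, n = 4 each). The CpG-rich window printed above lies in the upstream model and the CpG-poor one in the downstream model. How reads from the stretch covered by both models were counted is not given, and the table does not say at which start the transcripts began.

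Plcb1, the beta isoform best known from the brain, was not called. Its model on chromosome 2, from 134786163 to 135475258, had 184, 143, 252 and 259 normalized counts in spermatids and 230, 312, 710 and 237 in spermatocytes (log2 fold change -0.70 ± 0.37 SE, limma adjusted p = 0.103). The groups overlapped, and spermatocyte library 3, with the highest Sertoli marker sum, stood above the rest. The part of Sertoli cell RNA in the Plcb1 values was not tested. Plcb1 was called lower with equal total reads (-1.14) and with quantile normalization (-1.10). The antisense gene 4930545L23Rik inside the Plcb1 locus rose, with 3654 ± 682 normalized counts in spermatids and 86.7 ± 33.6 in spermatocytes (SD, n = 4 each). Its log2 fold change was 5.44 ± 0.28 (SE; limma adjusted p = 8.0e-09). It shares 0 exon bases with Plcb1 in GENCODE M21, and it was chosen for mention after its values were seen.

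The gamma genes differed in their change. Plcg2, which acts downstream of immune receptors in B cells and myeloid cells, rose. On chromosome 8 from 117498278 to 117635140, it had 759, 749, 1010 and 1032 normalized counts in spermatids, against 132, 86.4, 119 and 177 in spermatocytes. The groups were well separated, with a ratio of means of 6.91 and a log2 fold change of 2.81 ± 0.26 (SE; limma adjusted p = 1.1e-06). Of 10 markers of macrophages and blood 7 also were called higher in spermatids. Among them was Csf1r, the receptor for a macrophage growth factor, with 623 to 1432 normalized counts in spermatids and 11.3 to 35.4 in spermatocytes. In spermatid libraries 1 to 4 the marker sum was 5356, 2747, 2334 and 3998, beside 759, 749, 1010 and 1032 normalized counts of Plcg2. The library with the highest sum and the library with the highest Plcg2 were not the same, nor were those with the lowest. The part of macrophage RNA in the Plcg2 difference was not tested. Plcg1, the broadly expressed gamma isoform on chromosome 2 from 160731300 to 160775760, had 497, 406, 461 and 429 normalized counts in spermatids and 395, 372, 314 and 526 in spermatocytes (log2 fold change 0.18 ± 0.22 SE, limma adjusted p = 0.48). The groups overlapped, and the sign became negative with equal total reads (-0.26) and quantile normalization (-0.18). Plcg1 overlaps the model of Zhx3 on the opposite strand, with 379 shared exon bases in GENCODE M21, and Zhx3 had 26558 ± 6314 normalized counts in spermatids and 4628 ± 669 in spermatocytes (SD, n = 4 each).

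**Figure D2:**
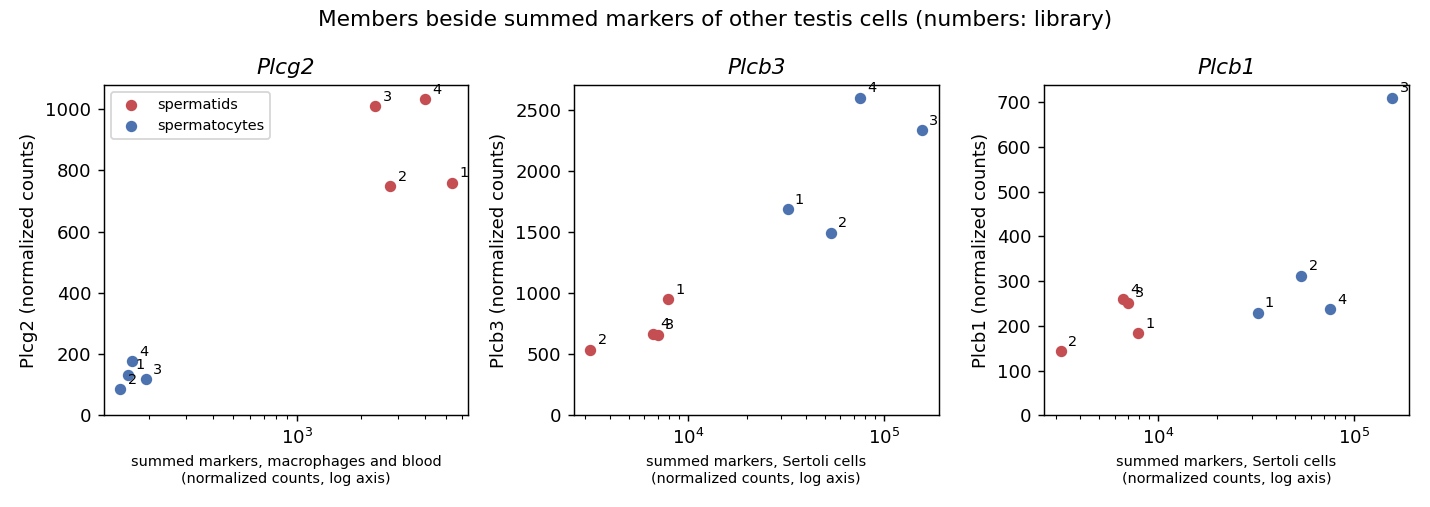
Normalized counts of Plcg2, Plcb3 and Plcb1 in each library against the summed normalized counts (log axis) of markers of macrophages and blood (Plcg2) or Sertoli cells (Plcb3 and Plcb1); numbers give the library within its cell type. Spermatids lay high in Plcg2 and in the macrophage and blood sum (2334 to 5356, against 147 to 195 in spermatocytes), and spermatocyte library 3 stood apart in Plcb1 (710).

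To compare levels between genes, normalized counts were divided by the exon length of each gene in kb. That length took in each base within the model that lay in an exon of any annotated transcript of the gene. In spermatids the order ran from Plcz1 (17252 ± 3440 normalized counts per kb) and Plcd4 (3630 ± 625), each separate from the next, to Plcb4 (270 ± 55.9), Plcd1 (257 ± 52.3), Plcg2 (207 ± 36.0) and Plcb2 (199 ± 13.5), whose neighbours overlapped (SD, n = 4 each). Below these came Plcb3 (105 ± 26.0), Plcd3 (66.9 ± 10.7), Plcg1 (57.0 ± 5.06) and Plcb1 (19.0 ± 5.07), and in this lower part only Plcd3 and Plcg1 overlapped. In spermatocytes Plcd4 came first with 1293 ± 140 normalized counts per kb, and its range was separate from that of Plcb2 (801 ± 201). Plcb2 overlapped with Plcz1 (467 ± 120), and Plcz1 with Plcb3 (302 ± 77.9). Plcd1 (116 ± 18.6), Plcd3 (89.3 ± 33.2), Plcg1 (51.1 ± 11.4), Plcb4 (36.4 ± 5.68), Plcb1 (33.8 ± 20.7) and Plcg2 (29.9 ± 8.75) followed, and each overlapped with the next. Exon lengths came from GENCODE M21 and not from the authors' gene models, which limits the comparison between genes.

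The family thus had a different leading member in each cell type. Plcz1 held 76.7, 77.7, 78.4 and 79.3% of the family's normalized counts per kb in spermatid libraries 1 to 4, against 14.4, 17.0, 18.7 and 8.68% in spermatocyte libraries 1 to 4. Plcd4 held 16.5 ± 0.779% in spermatids and 40.1 ± 2.15% in spermatocytes, and Plcb2 0.927 ± 0.191% in spermatids and 24.7 ± 4.91% in spermatocytes (SD, n = 4 each). Summed per kb, the family had 22064 ± 4140 normalized counts in spermatids and 3219 ± 209 in spermatocytes, a ratio of 6.85. Without length correction, the log2 ratio of Plcz1 to the sum of the other 9 members was 0.36 ± 0.09 in spermatids and -4.04 ± 0.57 in spermatocytes (SD, n = 4 each), and spermatocyte library 4 was the lowest at -4.84. These shares describe the libraries and were not tested.

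**Figure D3:**
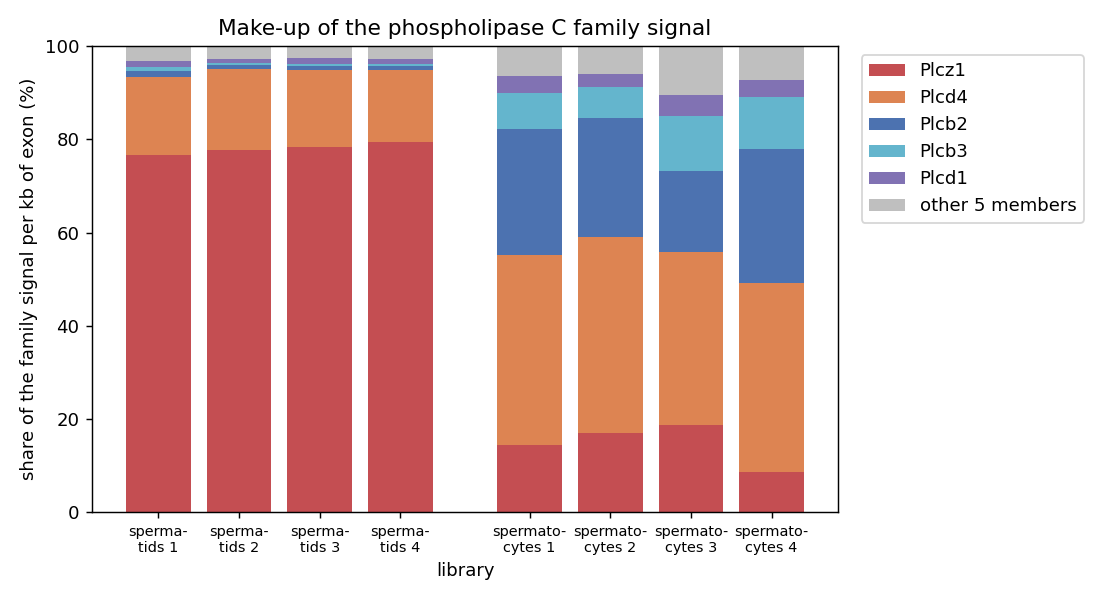
Share of each phospholipase C gene in the family's summed normalized counts per kb of exon (%), in each spermatid and spermatocyte library; the grey part sums the 5 members not drawn singly. Plcz1 holds 76.7 to 79.3% in spermatids and 8.68 to 18.7% in spermatocytes, where Plcd4 holds the largest share in each of the 4 libraries.

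The calls of 7 of the 10 members were the same under all 22 other settings. The exceptions were Plcd4, Plcd1 and Plcb1, for which the scaling decided the fold threshold. The plot of fold changes sets each change beside its range over these settings. For Plcz1 that range was 4.57 to 5.36, for Plcb4 2.44 to 3.06, for Plcg2 2.37 to 3.09, for Plcb3 -1.95 to -1.20 and for Plcb2 -2.41 to -1.69.

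**Figure D4:**
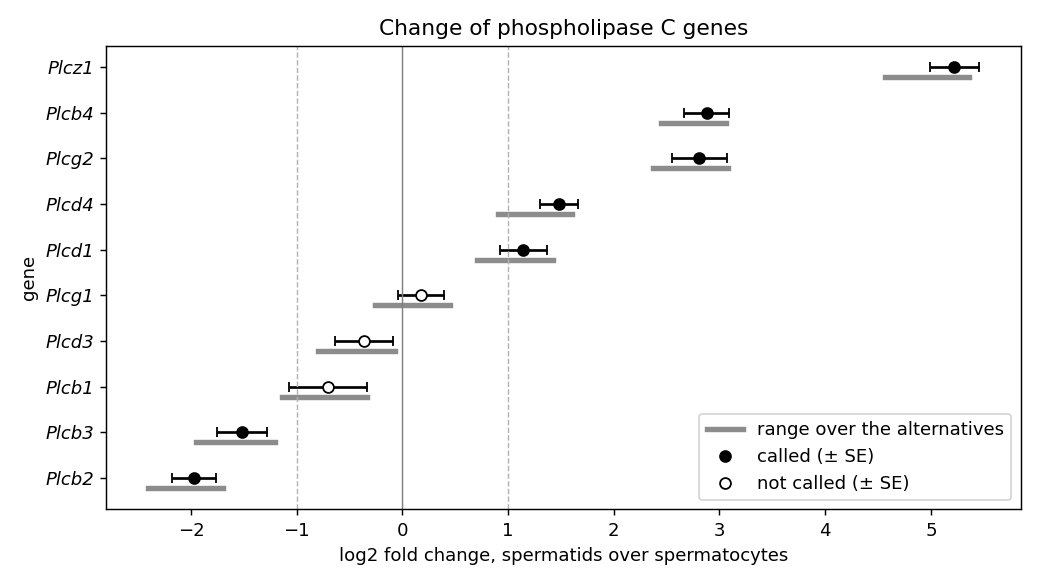
Log2 fold change of the 10 phospholipase C genes, spermatids over spermatocytes, with the SE from limma; filled points were called, open points were not, and grey bars give the range over 22 other settings. Dashed lines mark the fold threshold of 1, and Plcz1 stands at 5.22 and Plcb2 at -1.97.

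Plcz1 lies head to head with Capza3, which encodes an actin capping protein subunit of male germ cells. The 2 models are 92 bases apart in the table, and the GENCODE M21 genes share 206 bases on opposite strands. Capza3 had 20270, 21966, 25515 and 23997 normalized counts in spermatids, against 770, 668, 792 and 634 in spermatocytes. The groups did not overlap, and the log2 fold change was 5.0 ± 0.16 (SE; limma adjusted p = 9.5e-10). The log2 ratio of Plcz1 to Capza3 was 0.86 ± 0.18 in spermatids and 0.63 ± 0.34 in spermatocytes (SD, n = 4 each). The RefSeq table used here holds windows for 9 of the 10 members and names none for Plcz1.

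Among 12234 named models with a mean of at least 100 normalized counts, those whose profile over the 8 libraries was closest to that of Plcz1 were Triml1, Hsfy2, Odf3, Spata9 and Apol7b. Likeness was the root mean square difference of log2 values after each gene was centred on its own mean, and it was 0.08 for Triml1, 0.08 for Hsfy2, 0.09 for Odf3, 0.09 for Spata9 and 0.10 for Apol7b. Triml1 had 16052 ± 3282 normalized counts in spermatids and 416 ± 82.1 in spermatocytes, and Odf3, named for the outer dense fibres of sperm tails, 20868 ± 4017 in spermatids and 577 ± 175 in spermatocytes (SD, n = 4 each). For Plcb2 the closest were Grb10 (0.14), Lypd8 (0.14), Scpep1 (0.16), Mesdc2 (0.16) and Chst15 (0.16). The difference between the cell types dominates such profiles, so likeness is only a description.

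The 12 RefSeq windows of the 9 members differed in CpG content. The ratio of observed to expected CpG was 0.13 and 0.18 for both starts of Plcd4, 0.18 for Plcb2 and 0.20 for the downstream start of Plcb4. It was 1.03 for the upstream start of Plcb4, 0.58 and 0.48 for the starts of Plcd1, and between 0.70 and 0.80 for Plcb1, Plcb3, Plcd3, Plcg1 and Plcg2. Over all 32851 windows of this length the median ratio was 0.38, with quartiles of 0.18 and 0.75. The letters TGACG, part of the site bound by CREB and CREM factors, were searched on both strands and occurred in 0 of the 12 windows and in 20.8% of all windows. The longer TGACGTCA, which contains it, occurred in 0 of 12 and in 1.79% of all. TATAAA occurred in 0 of 12 and in 13.6% of all windows on either strand. GGGCGG was found on either strand in the window of each member other than Plcd4 and the downstream Plcb4 window, and in 35.7% of all windows.

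Other genes of the pathway were taken from 9 lists of 102 genes, of which 95 were in the table and 94 were tested. Of these 38 rose and 14 fell, where 32.5% of all tested models were called higher and 29.8% lower. The 38 include Capza3 and all 7 tested genes of the sperm head list. Among related genes that are not members, 4 of 7 tested rose and 1 fell, with a median log2 fold change of 1.01. The rise of Plch1, named after its values were seen, was close to the threshold (1.01), and its groups overlapped. With edgeR, and likewise with DESeq2, 3 genes of this list were called higher. Plcl1, a relative that lacks lipase activity, had 374 to 551 normalized counts in spermatids and 20.6 to 32.4 in spermatocytes (log2 fold change 4.14, limma adjusted p = 4.8e-08). Plcxd2 rose by 3.27, and Plch2 fell by 1.22 on the log2 scale. Plch2 was at -0.93 after a GC correction and then fell short of the fold threshold.

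Of 8 G proteins and regulators upstream of the beta enzymes 2 fell and 0 rose, with a median of -0.48. Gna11, which encodes an activator of beta isoforms, had 733 ± 72.8 normalized counts in spermatids and 1770 ± 405 in spermatocytes (SD, n = 4 each; log2 fold change -1.25), and Ric8, a chaperone of G protein alpha subunits, was at -1.09. Without spermatocyte library 4 the change of Ric8 was -0.91, short of the threshold. After the GC correction neither was called, with Gna11 at -0.98 and Ric8 at -0.81.

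Among 16 genes of IP3 receptors and calcium stores 5 rose, 3 fell and 8 were not called, with a median log2 fold change of 0.18. Calr3, the calreticulin of male germ cells, had 6928 ± 1916 normalized counts in spermatids and 247 ± 58.3 in spermatocytes (SD, n = 4 each; log2 fold change 4.79). Mcu, the pore of the mitochondrial calcium uniporter, rose by 4.45 on the log2 scale. Orai2, a plasma membrane calcium channel, was at -1.47. With equal total reads 5 genes of this list were called lower, and likewise with quantile normalization.

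Inositol phosphate turnover was covered by 13 tested genes, of which 5 rose and 2 fell (median 0.60). Inpp4a, an inositol polyphosphate phosphatase, rose by 3.57 and Inpp1, which removes a phosphate from inositol bisphosphate, by 3.09 on the log2 scale. Ipmk, an inositol phosphate kinase, was at -1.42 and Itpkc, an IP3 kinase, at -1.33. Of 23 genes of PIP2 supply and removal 7 rose and 4 fell, with a median of 0.41. Pip5kl1, a PIP5 kinase-like gene, had 501 to 859 normalized counts in spermatids and 19.6 to 37.7 in spermatocytes (log2 fold change 4.72), and Inpp5j, a 5-phosphatase, rose by 4.51. Pip5k1b, which makes PIP2, had 25.1, 14.0, 42.0 and 49.0 normalized counts in spermatids, against 235, 391, 1216 and 654 in spermatocytes (log2 fold change -4.10). Inpp5b, a 5-phosphatase, was at -1.99. Both were highest in spermatocyte library 3, as was the Sertoli marker sum, and the part of Sertoli cell RNA was not tested.

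Diacylglycerol kinases, which remove the second product of phospholipase C, were called higher for 4 of 10 genes and lower for 1 (median 1.00). The rise of Dgki, named after its values were seen, was close to the threshold (1.00). Dgkh had 21155 ± 3454 normalized counts in spermatids and 608 ± 44.6 in spermatocytes (SD, n = 4 each; log2 fold change 5.11). Dgkb had 96.3 to 112 normalized counts in spermatids and 0 to 3.35 in spermatocytes, at most 3 reads per library, so that its fitted log2 fold change depends on the added constant (5.50 with 1 and 3.55 with 8). Dgkq was at -1.01, close to the threshold, and was not called in 9 of the 22 other settings, among them without spermatid library 2 or 4 and without spermatocyte library 3 or 4. Of 9 protein kinase C genes 5 rose and 1 fell, with a median of 1.40. Prkcq had 9599 ± 1013 normalized counts in spermatids and 355 ± 13.2 in spermatocytes (SD, n = 4 each) and rose by 4.75 on the log2 scale. Prkce was at -2.15, with its highest value in spermatocyte library 3 (919 normalized counts).

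Genes of sperm head proteins linked to egg activation and gamete fusion rose in 7 of 7 tested cases, with a median log2 fold change of 4.71. Dcst1, a sperm membrane protein needed for fusion, had 20616 ± 4282 normalized counts in spermatids and 484 ± 72.7 in spermatocytes (SD, n = 4 each; log2 fold change 5.40), and the hyaluronidase gene Spam1 rose by 5.87. The other 5 of 12 listed genes were not analysed here. The plot of calls by list places the family beside these groups, for which 32.5% higher and 29.8% lower calls over all tested models are the background.

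**Figure D5:**
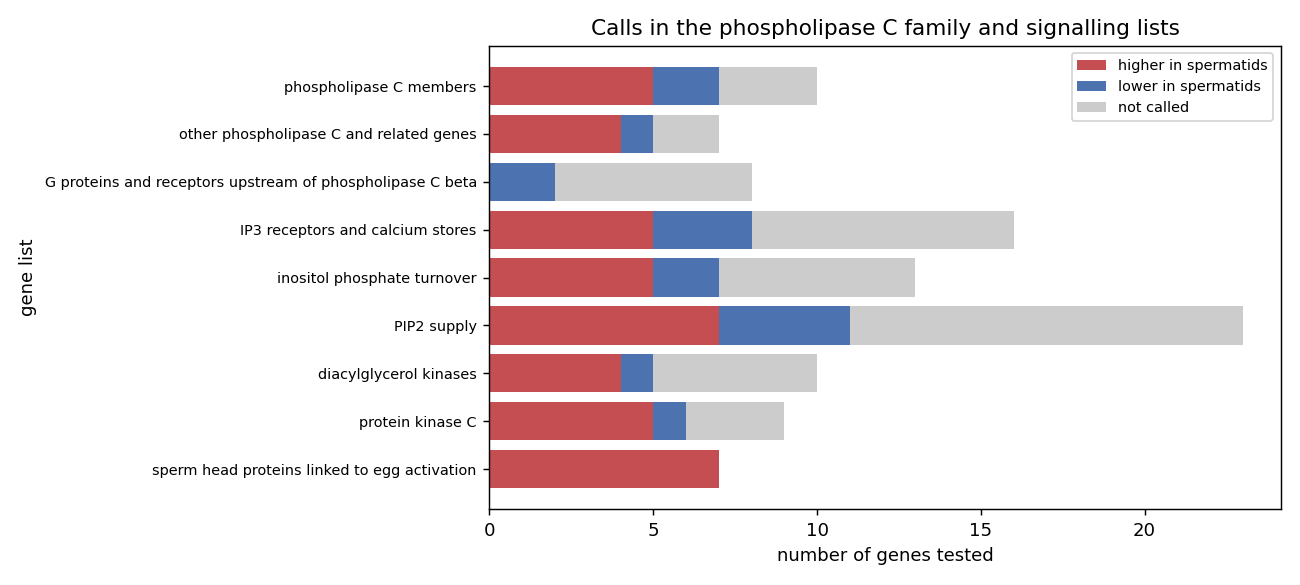
Number of genes called higher in spermatids, called lower in spermatids or not called in the phospholipase C family and in 8 lists of its pathway. The family has 5 higher and 2 lower of 10, and the sperm head list has 7 higher of 7.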

How the data were processed

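RNA was sequenced from 8 libraries, 4 of spermatids and 4 of spermatocytes. Per the labels' protocols, the RNA was DNase-treated and made into stranded mRNA libraries. The deposited signal holds size-factor normalized read counts of gene models; the submitters' processing notes name STAR 2.4.0, SAMtools, Picard, FastQC, DESeq and the mm10 build. The sources used here do not give the counting tool, its strand setting or filters. The table's 8 further columns of per-sample values were not used. Within each library 100% of the values above 0 lay within 10% of a fixed step from a whole number, which gave back whole reads.

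Tests covered 28735 of 56324 models, those reaching 10 normalized counts in 4 or more libraries. The main test was limma 3.58.1 (R 4.3.3, trend and robust moderation) on log2(normalized count + 1), which understates changes of low genes, with no covariate. Libraries of a group differed by more than sampling noise (smallest chi-square per degree of freedom 12.2). The fit was checked on simulated counts. For Plcb4 and list genes with several models, the model with the highest mean was used, and 2 of 95 list genes were matched by a synonym.

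Alternatives were a pseudocount of 0.5 or 8, no filter or one of 50, scaling by TMM or median of ratios, equal-total and quantile scaling, plain moderation, edgeR 4.0.16 (9272 models called higher and 8634 lower) and DESeq2 1.42.0 on whole reads, left-out libraries, and a GC correction added after seeing the data. Named genes were all members, Capza3, the 2 largest called rises and falls of each list and the 5 profiles closest to Plcz1 and to Plcb2 among symbol-bearing models. Some genes that this rule names are not reported here. Members and lists were chosen with earlier results of these data known.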

Additional observations from a re-analysis of the deposited data

Results flagged for a closer look

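Among 72 groups of 4 libraries (36 genes in each cell type: the members, Capza3 and the genes named from the lists), 8 held a library whose gap to the nearest other took up more of the group's range than Dixon's critical value allows, where chance flags about 1 group in 20. None of the 8 concerned a phospholipase C member. In spermatocyte library 4, Gna11 had 2376 normalized counts against 1526 to 1598 in the other spermatocyte libraries, Ric8 had 2015 against 1144 to 1274, and Pip5kl1 had 37.7 against 19.6 to 21.2. Gna11 in spermatid library 4 had 624 against 764 to 777 in the other spermatid libraries. Spermatid library 1 had 826 normalized counts of Ipmk against 358 to 430 in the others, and 15693 of Spam1 against 24854 to 25818. Itpkc had 263 in spermatid library 2 against 132 to 151, and Inpp1 had 163 in spermatocyte library 1 against 123 to 126.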

How the results depend on the processing

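With quantile normalization 3 members were called higher, against 5 as deposited. Leaving out each library in turn gave 5 members called higher and 2 lower every time, 35 to 40 list genes called higher and 12 to 16 lower, and a difference of 4.14 to 4.57 in the log2 ratio of Plcz1 to the other members (4.40 with all libraries). These settings tested different numbers of models, so the calls are given with the number tested. They were 9333 higher and 8563 lower of 28735 in the main setting, and 11986 and 14333 of 49037 with no filter. With a filter of 50 normalized counts they were 7211 and 5470 of 21208. Over models with a known GC content they were 6372 and 3792 of 17967, and after the GC correction 6445 and 3800 of 17967. Their median log2 change was -0.44 with equal total reads, -0.36 with quantile normalization, -0.17 with no filter, 0.11 with a filter of 50 normalized counts, 0.25 over models with a known GC content and 0.27 after the GC correction, against -0.01, and changes under these settings are to be read against it. Over 36 genes (the members, Capza3 and the genes named from the lists) and 22 settings, 772 comparisons kept the call, 18 lost it and 2 gained it, and none reversed a called direction. No paired analysis was possible because the labels give no replicate numbers. Upstream Plcb4, at 2 to 9 reads per library, and Plcxd3 were too low to test.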

Other observations

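Several pathway genes outside the rule for named genes were abundant and changed, and they were chosen after their values were seen. Prkcd, a protein kinase C gene, had 7994 ± 1074 normalized counts in spermatids and 420 ± 101 in spermatocytes (log2 fold change 4.27). Cdipt, which makes phosphatidylinositol, had 4894 ± 852 in spermatids and 497 ± 155 in spermatocytes (3.33). Itpr3, an IP3 receptor gene, had 824 ± 190 in spermatids and 73.2 ± 21.5 in spermatocytes (3.49; SD over 4 libraries each throughout). Stim1, the calcium sensor of the endoplasmic reticulum, was lower, with 12367 ± 1526 in spermatids and 27748 ± 3771 in spermatocytes (log2 fold change -1.16). The most abundant store genes, Clgn and Calr, were not called, with log2 fold changes of -0.03 and 0.07.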
